A study of Homo sapiens with 16 samples.

Results

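The peaks described here are all binding sites of the ETS factors GABPα and ERG that start on chromosome 6 between 25.5 and 33.5 Mb of the human genome build hg18, a stretch of 8 Mb that holds the large histone gene cluster and the major histocompatibility complex (MHC). They were chosen by position alone, and the stretch was split at 28.5 Mb into a histone part of 3 Mb and an MHC part of 5 Mb. They comprised 775 of the 155269 peaks called by the program MACS in the 10 ChIP samples, and 427 of the 39138 high confidence peaks, which were called by both MACS and a second program, SWEMBL. Overlapping MACS peaks of the 10 samples were merged into sites, of which 398 of 93526 lay in the region, 177 in the histone part and 221 in the MHC part.

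ChIP-seq recovers DNA bound by a protein with an antibody and locates it by sequencing. VCaP, a prostate cancer line that carries the androgen-driven TMPRSS2-ERG fusion, gave 1 sample for each factor and each of 3 states, namely t0, vehicle (ethanol) and the synthetic androgen R1881 at 1 nM. Cells given vehicle or R1881 had spent 48 h in charcoal-stripped serum, and the labels do not say more of t0. Jurkat, a T-cell leukaemia line that the labels give with no treatment, gave 2 replicates for each factor. Each line stands for 1 tissue, so the line and the tissue cannot be told apart, and differences between VCaP samples have no replicate. The labels and the study's methods name different antibodies for ERG, so which was used is not settled here, while SC-22810 is named for GABPα in both.

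The histone cluster packs replication-dependent histone genes among transfer RNA and zinc finger genes. The MHC holds the antigen-presenting class I and class II genes, with a gene-dense class III segment between them that also carries many genes used by all cells. GABPα is the DNA-binding subunit of GABP, which binds GGAA sequences and is known for activating promoters of housekeeping genes, while ERG, an ETS factor of endothelial and blood stem cells, binds the same core and is often found at enhancers. No annotation or sequence of hg18 was used, so peaks are given by position and not assigned to genes.

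GABPα peaks were several times more concentrated in the region than ERG peaks. Of the GABPα high confidence peaks, 47 of 2851 (1.65%) fell in the region in VCaP cells at t0, 96 of 6365 (1.51%) with vehicle and 91 of 5987 (1.52%) with R1881. In Jurkat cells the numbers were 84 of 8288 (1.01%) and 95 of 9769 (0.972%). ERG had 0 of 2 at t0 (upper limit of the 95% Wilson interval 65.8%), 1 of 743 (0.135%) with vehicle and 5 of 2229 (0.224%) with R1881. The Jurkat ERG replicates had 4 of 1103 (0.363%) and 4 of 1801 (0.222%). Every GABPα sample thus lay above every ERG sample, although ERG at t0 had too few peaks to place its share.

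The mean share was 1.33% ± 0.315 (SD, n = 5 samples) for GABPα and 0.189% ± 0.133 (SD, n = 5) for ERG, a difference of 1.14 percentage points (two-sided exact permutation test, p = 0.00794, the smallest that 5 against 5 samples can give). Adjusted over the 7 comparisons of this kind made here, p was 0.0556 (Benjamini-Hochberg, over exact permutation tests). With all MACS peaks the shares were 0.736% ± 0.177 and 0.277% ± 0.0253, respectively (SD, n = 5 each), again without overlap. Among the 1000 highest-scoring MACS peaks of each sample, which sets every sample to the same number of peaks, 10 to 18 GABPα peaks and 1 to 4 ERG peaks lay in the region.

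Against the rest of chromosome 6, GABPα high confidence peaks were 10.9, 9.08 and 9.48 times as dense in the region in VCaP cells at t0, with vehicle and with R1881, and 4.95 and 4.40 times as dense in the Jurkat replicates. With MACS peaks the GABPα ratios were smaller, at 4.76, 3.94, 4.25, 1.83 and 1.86 in the same order, and those of ERG ran from 0.859 to 1.26. When the chromosomes were tiled into 396 windows of 8 Mb that held any high confidence peak, the region had rank 4 by number in 3 GABPα samples and rank 5 in the other two. Its rank among ERG samples with a high confidence peak there was between 73 and 191. Gene density was not measured, and its part in these ratios was not tested.

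**Figure D1:**
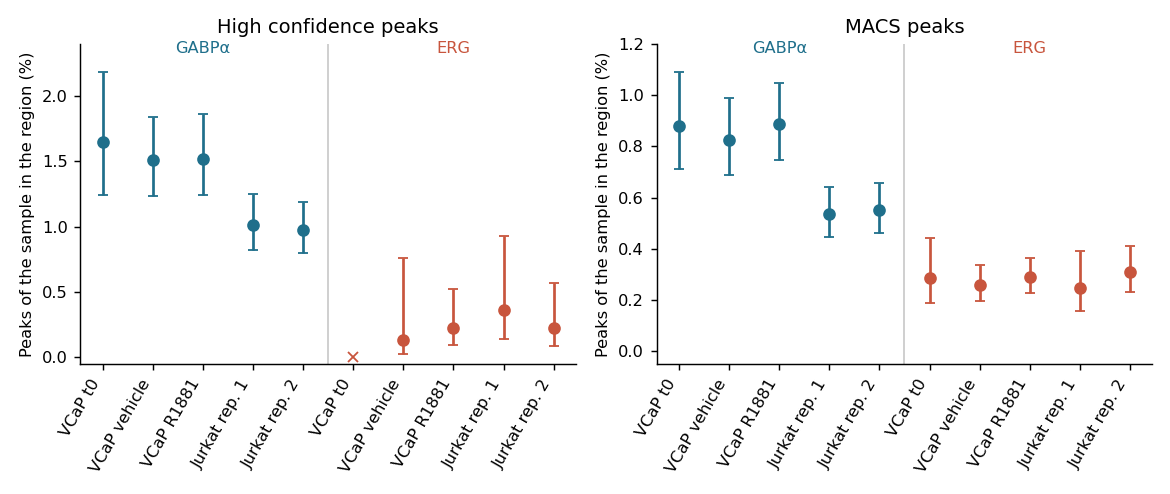
Percent of each sample's high confidence peaks (left) and MACS peaks (right) that start in the region, with 95% Wilson intervals over peaks. All 5 GABPα samples (0.972 to 1.65% of high confidence peaks) lie above all 5 ERG samples. The cross marks the ERG t0 sample, which had 2 high confidence peaks in all and is drawn without its interval.

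Within GABPα, the VCaP samples held a larger share of their peaks in the region than the Jurkat samples. The mean was 1.56% ± 0.0778 (SD, n = 3) in VCaP and 0.993% ± 0.0290 (SD, n = 2) in Jurkat cells, and the difference of 0.566 percentage points had p = 0.2 (two-sided exact permutation test), which is the smallest this design allows. The groups did not overlap with MACS peaks either (0.864% ± 0.0340 and 0.543% ± 0.0120; SD, n = 3 and 2). The number of peaks itself was similar (84 to 133 MACS peaks in VCaP, 115 and 122 in Jurkat), while the Jurkat sets were larger genome-wide. Among the first 1000 MACS peaks by score, 16, 15 and 18 lay in the region in VCaP and 11 and 10 in Jurkat. Copy number of the region in either line was not measured.

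The excess in VCaP cells was uneven along the region. In the third 1 Mb bin, the last of the histone part, the VCaP samples had 15, 22 and 19 GABPα high confidence peaks (mean 0.396% of the sample) and the Jurkat samples 12 and 15 (mean 0.149%). In the eighth bin, at the class II end of the MHC part, the mean shares were 0.317% and 0.140%. In the seventh bin, by contrast, they were 0.261% and 0.283%, and the Jurkat replicates had 24 and 27 high confidence peaks there. These are pieces of MACS peaks, and 28.6 and 27.8% of the Jurkat MACS peaks kept in the region were split into 2 or more pieces, against 14.4 and 12.2% elsewhere. In VCaP cells at t0, with vehicle and with R1881, 14.6, 19.2 and 15.8% were split, against 6.37, 11.2 and 12.7% elsewhere. By MACS peaks, bin 7 held 16 and 22 and bin 3 held 21 in each Jurkat replicate. Bin 3 held 20, 24 and 32 MACS peaks in the VCaP samples. In bin 8 the VCaP samples had 10, 16 and 18 MACS peaks and the Jurkat replicates 19 and 17. The first bin held 0 to 2 VCaP high confidence peaks and 6 in each Jurkat replicate. These shares are descriptions without a test.

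Both factors had peaks along the whole region, but their numbers were highest in different bins. GABPα high confidence peaks were densest in bins 3, 7 and 8 (medians of 15, 16 and 13 peaks per sample) and sparse in bins 1, 4 and 5 (medians of 2, 4 and 4). The widest stretch without a GABPα high confidence site was 958549 bp in the MHC part, from 29081765 to 30040315. In the histone part the widest gap between 2 such sites was 326533 bp, from 26768482 to 27095016. The longer stretch from the start of the region to 26070332 also held none. ERG MACS peaks were most frequent in bins 1 and 4, with 47 and 49 over the 5 samples. In the same bins GABPα had 52 and 57 MACS peaks. ERG MACS peaks were least frequent in bin 7, with 7, where GABPα had 93.

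**Figure D2:**
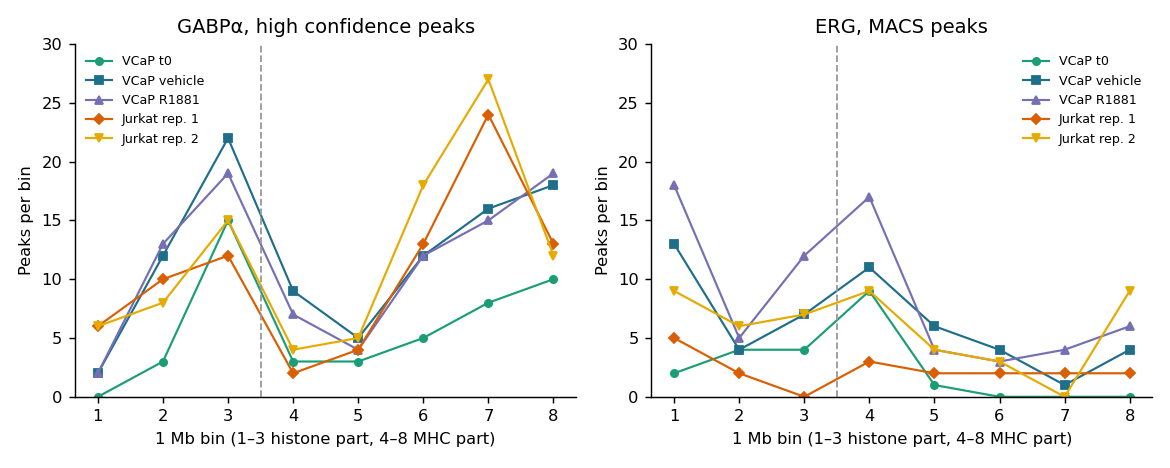
GABPα high confidence peaks (left) and ERG MACS peaks (right) in each of 8 bins of 1 Mb from the start of the region, by sample, with the split between the histone and MHC parts dashed. GABPα has a peak of numbers in bin 3 and a second rise over bins 6 to 8, while ERG MACS peaks are most frequent in bins 1 and 4.

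The 2 parts of the region had similar GABPα densities. Per Mb, the histone part held 0.160% ± 0.0505 and the MHC part 0.171% ± 0.0328 of a sample's GABPα high confidence peaks (SD, n = 5), while ERG had 0.0367% ± 0.0267 and 0.0157% ± 0.0178 (SD, n = 5). Over the 10 samples, the MHC part minus the histone part was -0.00523 percentage points per Mb (two-sided exact sign-flip permutation test, p = 0.570). With all MACS peaks, the density was lower in the MHC part in all 10 samples, by 0.0124 on average (difference -0.0124, p = 0.00195 in the same exact test, the smallest that 10 samples can give). The call therefore depended on the peak set.

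GABPα peaks in the region had higher median scores than those elsewhere in all 5 samples, and ERG peaks in 3 of 5. The MACS score is -10 × log10 of the p-value of a peak and grows with the depth of the library, so it was compared within each sample. The median score of GABPα MACS peaks in the region against the rest of the genome was 174 against 71.9 at t0, 392 against 139 with vehicle and 296 against 126 with R1881. In the Jurkat replicates it was 196 against 113 and 161 against 104. For ERG, medians in the region were between 59.8 and 74.7, and those elsewhere between 57.5 and 77.6.

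On the log2 scale, the score was higher in the region by 1.08 ± 0.361 for GABPα and differed by -0.03 ± 0.129 for ERG (SD, n = 5 each). Every GABPα sample exceeded every ERG sample (difference 1.11, two-sided exact permutation test, p = 0.00794). This test of the factors was added after seeing the data. Over all 10 samples the mean difference was 0.53 (exact sign-flip permutation test, p = 0.0410; adjusted p = 0.0957). For the 5 GABPα samples alone, p was 0.063, the smallest that 5 samples can give in the exact test. Among the MACS peaks that overlapped a high confidence peak, the difference fell to 0.02 over the 9 samples that had one in the region (exact sign-flip permutation test, p = 0.812). Peaks with a score of at least 400 made up 27.8 to 49.6% of GABPα MACS peaks in the region and 15.5 to 30.2% of those elsewhere.

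The share of GABPα MACS peaks that reached high confidence showed the same. It was 48.8% in the region at t0 (27.9% over all MACS peaks of the sample), 66.7% with vehicle (39.6% over all), 57.1% with R1881 (34.8% over all), and 54.8% and 59.0% in the Jurkat replicates (32.8% and 38.3% over all). For ERG these shares were 0% at t0 (0.0287% over all), 2.00% with vehicle (3.81% over all), 5.80% with R1881 (8.54% over all), and 22.2% and 8.51% in Jurkat cells (15.1% and 10.2% over all). Region minus rest came to 22.8 ± 2.60 percentage points for GABPα and 0.167 ± 4.0 for ERG (SD, n = 5 each). The difference between the factors was 22.6 (two-sided exact permutation test, p = 0.00794), in a test also added after seeing the data. Over all 10 samples, region minus rest had a mean of 11.5 (exact sign-flip permutation test, p = 0.0313 and adjusted p = 0.0957). That mean rested on the GABPα samples. GABPα MACS peaks in the region were also longer, by 167 to 446 bp in the median. Among the 100 highest MACS scores of a sample, ties included, GABPα had 1 peak in the region at t0, 1 of 313 with vehicle, 3 of 343 with R1881 and none in the Jurkat replicates, and ERG had none in any sample.

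**Figure D3:**
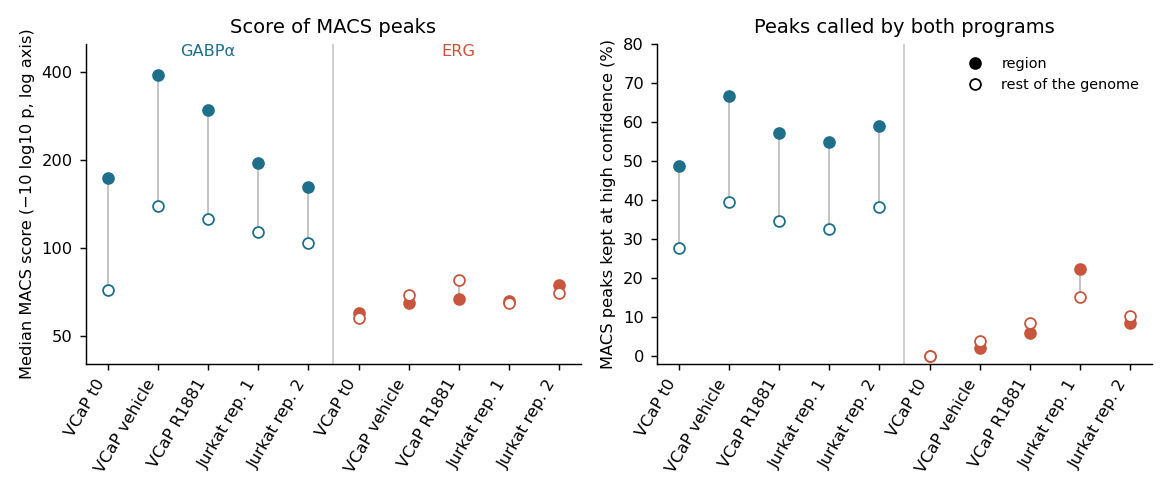
Median MACS score (left, log axis) and percent of MACS peaks also called by SWEMBL (right) for peaks in the region (filled) and in the rest of the genome (open), by sample. The filled points lie above the open ones in all 5 GABPα samples, whereas in the ERG samples they lie on either side.

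Over the region, 257 sites had a GABPα MACS peak and 176 an ERG MACS peak, with 35 in common. These 35 were 19.9% of the ERG sites, against 20.1% genome-wide. Of the GABPα sites, 35 of 257 in the region and 11772 of 46811 genome-wide had peaks of both factors. GABPα reached high confidence at 112 sites, 39 in the histone part and 73 in the MHC part. Of these, 28 (25%) were high confidence in all 5 samples, against 14.5% of the 12122 such sites genome-wide. At the 28 shared sites the median score was 805 at t0, 1887 with vehicle, 2032 with R1881, and 440 and 510 in the Jurkat replicates. At the other high confidence sites of each sample it was 752, 499, 549, 300 and 270, with a small margin at t0. The 28 sites were selected by high confidence in all 5 samples, which peaks with higher scores reach more often. Their higher scores therefore describe the selection, and shared sites elsewhere in the genome were not compared.

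The strongest shared site of the histone part lay at chr6:28327399-28329232, with scores of 1601 at t0, 1981 with vehicle, 2363 with R1881, and 1022 and 1177 in Jurkat cells. The second, chr6:27220991-27223473, scored 1245, 1794 and 957 in the VCaP samples and 1382 and 1780 in the Jurkat replicates. It was the only one of the 6 ranked histone sites at which both Jurkat scores exceeded the R1881 score. The others were chr6:28155675-28157972, chr6:28425122-28426945, chr6:27769267-27770925 and chr6:26644622-26647394, with scores between 397 and 1836 over the 5 samples.

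The strongest shared site of the MHC part, chr6:31622100-31624204, scored 2006, 2987 and 2976 in VCaP cells at t0, with vehicle and with R1881, and 1715 and 1959 in the Jurkat replicates. Next came chr6:33346622-33349532, with 2784, 2512 and 2447 in VCaP and 1837 and 2047 in Jurkat cells, chr6:33363705-33366623 and chr6:28518304-28519846. The first pair was among the top 5% of MACS scores in every sample. The fifth, chr6:30691569-30694537, reached 3100 with vehicle and with R1881, a value at which many MACS scores were tied, and 1328 at t0. Its Jurkat scores were 250 and 1763, the widest gap between the replicates among the 12 sites named. The sixth, chr6:32250836-32254518, ranked the other way, with 634, 913 and 970 in VCaP and 1833 and 1511 in Jurkat cells. No ERG MACS peak was called at any of these 12 sites in any sample. The same held for most sites with a GABPα MACS peak, 222 of 257 in the region and 35039 of 46811 genome-wide.

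**Figure D4:**
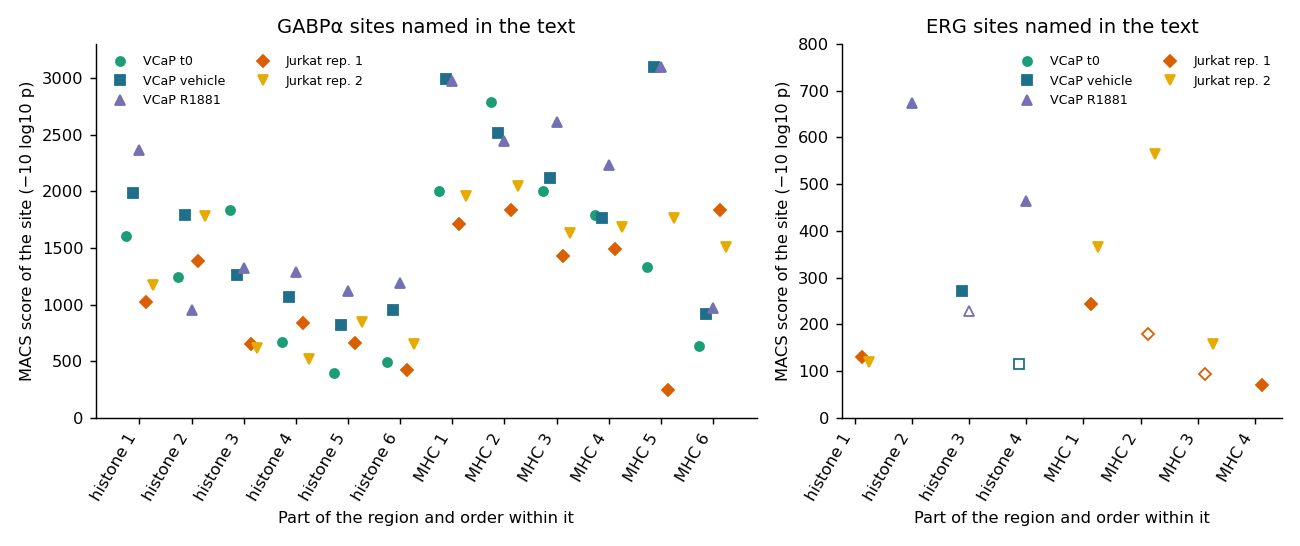
MACS scores by sample at the 12 GABPα sites (left) and 8 ERG sites (right) named in the text, ordered within the histone and MHC parts. Filled symbols are high confidence peaks and open symbols are MACS peaks alone. GABPα has a filled symbol from all 5 samples at each site, whereas each ERG site has symbols from VCaP or from Jurkat cells, not both.

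GABPα sites used by 1 cell line were also found. Sites that were high confidence in the 3 VCaP samples with no MACS peak in Jurkat cells numbered 12 (10.7% of 112), against 4.31% of high confidence sites genome-wide. Their scores ran from 63.4 to 1134 at t0, from 499 to 2868 with vehicle and from 443 to 2671 with R1881. The highest, at chr6:28293755-28295362, scored 519, 2868 and 2525, and chr6:27095016-27096616 scored 796, 2776 and 2671. Of the 12, 4 lay within 102644 bp at chr6:28199417-28302060, where there were 6 GABPα high confidence sites in all, 2 of them also used in Jurkat cells. The reverse pattern, high confidence in both Jurkat replicates with no VCaP MACS peak, was seen at 18 sites (16.1% of 112, against 27.8% genome-wide), 14 of them in the MHC part. Their scores ran from 131 to 1665 and from 73.9 to 968 in the 2 replicates. The highest score, at chr6:32267923-32269816, was 1665 and 683, and chr6:30227178-30227953 had 876 and 910. The single sites given here by score were picked after their values were seen, and the run of 4 VCaP sites was picked as the narrowest among the 12.

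Peak by peak, 56.0 and 51.6% of the Jurkat GABPα high confidence peaks in the region overlapped a VCaP peak (38.9% and 33.4% over all peaks of these samples). The VCaP shares overlapping a Jurkat peak were 72.3% at t0 (79.8% over all), 49.0% with vehicle (52.4% over all) and 51.6% with R1881 (55.2% over all). With these peaks the shares were above the background in both Jurkat samples and below it in all 3 VCaP samples, and the mean difference from the rest of the genome was 4.19 percentage points (two-sided exact sign-flip permutation test over 5 samples, p = 0.5). With all MACS peaks every sample, VCaP included, lay above the rest of the genome, by 17.3 points on average (p = 0.063 in the same exact test, the smallest 5 samples allow). Against the rest of chromosome 6 the mean difference was 11.3 points, and with whole MACS peaks in place of their pieces it was 9.47 (p = 0.312 each in the exact test).

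The GABPα peaks of the region were much the same with vehicle and with R1881. With high confidence peaks, R1881 shared 87.5% of the 96 seen in vehicle (84.2% over all), and vehicle shared 91.2% of the 91 seen in R1881 (91.0% over all). With MACS peaks these shares were 87.2% of 117 (69.9% over all) and 76.7% of 133 (66.0% over all). The Jurkat replicates shared 91.7% of the high confidence peaks of replicate 1 (86.4% over all) and 77.9% of those of replicate 2 (73.1% over all), and 82.6% and 77.9% of their MACS peaks (72.7% and 71.0% over all). At the 80 sites with a MACS peak in both samples and high confidence in at least 1, the median log2 ratio of the R1881 score to the vehicle score was 0.01 (interquartile range -0.17 to 0.26), with 41 sites higher and 38 lower, and 0 at 5753 sites elsewhere. A difference of more than 2-fold was seen at 3 of the 80. The score was lower with R1881 at chr6:31977656-31978367 (236 with vehicle, 88.6 with R1881) and chr6:31778381-31779544 (440 and 205), and higher at chr6:28710046-28712066 (197 and 423). These 3 were singled out after their values were seen. Between the Jurkat replicates, which had the same treatment, 11 of 67 matched sites of the region differed by more than 2-fold (5 higher and 6 lower in replicate 2). Neither count beyond 2-fold was made over the rest of the genome. With 1 sample per treatment, the effect of R1881 itself was not tested.

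The order of the scores was much the same with vehicle and R1881 (Spearman's rho = 0.964 over 100 sites, which share an input) and between the Jurkat replicates (0.866 over 95 sites, also sharing an input). Between VCaP and Jurkat samples rho was from 0.187 to 0.566, over 34 to 51 sites. These are correlations over sites of the same samples and describe them only. At t0 the VCaP GABPα set was smaller: each of its 47 region peaks overlapped one in vehicle (99.6% over all), while 46.9% of those in vehicle overlapped one at t0 (42.9% over all). With MACS peaks the shares were 70.2% of 84 (48.9% over all) and 50.4% of 117 (32.7% over all). The vehicle score exceeded the t0 score at 53 of 56 matched sites (3850 of 3999 elsewhere), with a median log2 ratio of 1.24 (1.67 elsewhere). Library depths were not in the files, so depth and state cannot be told apart here.

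**Figure D5:**
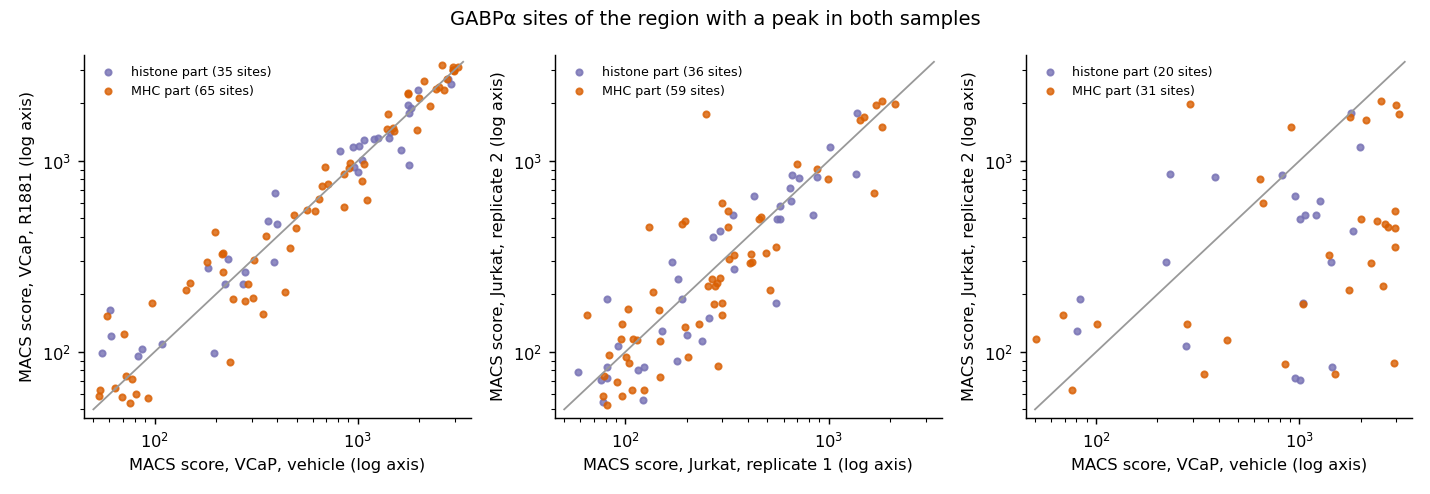
MACS scores of GABPα sites in the region that had a peak in both samples of a pair, with log axes and the line of equal scores, for vehicle and R1881 (left), the Jurkat replicates (middle) and VCaP vehicle with Jurkat replicate 2 (right). The 100 sites of the left panel follow the line, those of the middle panel spread more, and most of the 51 sites of the right panel scatter widely.

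ERG sites in the region were mostly seen once, as they were genome-wide, and their median scores lay near those elsewhere. MACS called 20, 50 and 69 peaks in VCaP cells at t0, with vehicle and with R1881, and 18 and 47 in the Jurkat replicates. Of the 176 sites, 151 (85.8%) had a peak in a single sample, against 79.9% genome-wide. R1881 shared 32.0% of the 50 MACS peaks seen in vehicle (40.4% over all), and vehicle shared 23.2% of the 69 seen in R1881 (32.3% over all). Of the 18 and 47 Jurkat peaks, 44.4% and 17.0% were shared with the other replicate (49.4% and 21.2% over all). At the 16 matched sites the R1881 score was higher at 11 (4583 of 7644 elsewhere), with a median log2 ratio of 0.46 (0.22 elsewhere). None of the 5 high confidence peaks with R1881 overlapped the 1 with vehicle (22.8% over all R1881 peaks and 58.7% over all vehicle peaks), whereas each Jurkat replicate shared 2 of its 4 (70.8% and 48.7% over all).

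High confidence ERG peaks marked 11 of the 176 sites (6.25%, against 7.01% genome-wide), 6 in the histone part and 5 in the MHC part. None of the 11 was high confidence in both cell lines. Such sharing was rare genome-wide too: t0 apart, 3.10 to 8.07% of a sample's ERG high confidence peaks overlapped one of the other line. Of the 4 sites in VCaP cells with R1881, chr6:25742664-25743261 scored 674 with R1881 and had no peak in any other sample. At chr6:27151436-27152817 the score was 116 with vehicle and 465 with R1881, at chr6:25767801-25769050 it was 118 and 347, and at chr6:32985553-32986325 it was 88.1 and 578. The vehicle peak at chr6:25757638-25758339 scored 272 and had a MACS peak of 228 with R1881. At these VCaP sites, each based on 1 sample per state, t0 had no ERG peak. Few ERG peaks were found at t0 anywhere: of the vehicle MACS peaks, 4.11% genome-wide and 2.00% of the 50 in the region overlapped one at t0.

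The Jurkat ERG sites recurred in part between the replicates. In both replicates, chr6:29784320-29785091 (243 and 366) and chr6:26444274-26445517 (130 and 119) were high confidence. At chr6:28501405-28502329 the score was 180 in replicate 1 and 564 in replicate 2, and at chr6:29311550-29312481 it was 94.6 and 158, with high confidence in replicate 2 in both cases. At chr6:25709852-25710436, high confidence in replicate 1, the scores were 186 and 92.5. The site chr6:30584142-30585601 had an ERG score of 70.7 in replicate 1 and none in replicate 2. An ERG MACS peak in both cell lines occurred at 2 of 176 sites (1.14%, against 2.22% genome-wide), namely chr6:25682431-25683020 and chr6:30040315-30041324. The second scored 65.9 with vehicle, 116 with R1881, and 52.6 and 290 in the Jurkat replicates.

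The overlap of the factors was counted over GABPα peaks, a direction chosen after the values were seen, and over ERG peaks, as planned. The percent of GABPα MACS peaks that overlapped an ERG MACS peak of the paired sample was 1.19% at t0 (1.84% over all), 3.42% with vehicle (17.8% over all), 6.77% with R1881 (25.8% over all), and 4.35% and 10.7% in the Jurkat replicates (10.4% and 19.1% over all). It was below the rest of the genome in 5 of 5 pairs, with a mean difference of -9.80 percentage points and p = 0.063 (two-sided exact sign-flip permutation test), the smallest that 5 pairs allow. Against the rest of chromosome 6, the difference was -12.2 points in the same exact test (p = 0.063). In the region, GABPα MACS peaks were 1.83 to 4.76 times as dense as on the rest of chromosome 6, and ERG MACS peaks 0.859 to 1.26 times. A share counted over GABPα peaks can fall with their density alone, and the part of density in this difference was not tested.

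Counted over ERG peaks, as laid out for the analysis, the shares were 5.00% at t0 (2.64% over all), 8.0% with vehicle (13.4% over all), 13.0% with R1881 (16.3% over all), and 27.8% and 27.7% in Jurkat cells (33.8% and 27.8% over all). The mean difference was -2.52 percentage points (exact sign-flip permutation test, p = 0.188), with 4 of 5 pairs lower in the region. GABPα MACS peaks were called at 9 of the 11 ERG high confidence sites in some sample (81.8%, against 59.2% genome-wide). Both factors were high confidence at 1 of them (9.09%, against 20.5%), chr6:30584142-30585601, where the GABPα scores in the Jurkat replicates were 695 and 968 and VCaP cells had no peak of either factor. Peak by peak, 1 of 4 ERG high confidence peaks in Jurkat replicate 1 (17.4% over all) and none in Jurkat replicate 2 (25.3% over all), with vehicle (10.2% over all) or with R1881 (9.24% over all) overlapped a GABPα high confidence peak of the paired sample. At the other 8 sites the highest GABPα score was 203.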

How the data were processed

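The authors aligned single-end reads to hg18 with BWA 0.5.5 and removed duplicates and reads of low alignment quality. MACS and SWEMBL were then run by sample with an input as control. Inputs were shared by vehicle and R1881 of a factor and by the Jurkat replicates of a factor. The deposited MACS files give a score of -10 × log10 of the p-value, with 50 as the lowest. High confidence files hold pieces of MACS peaks, with the same score in 7 samples, and without it in 3, whose last column has no stated meaning and was not used. Read depths are not given in the sources used here, so intervals cover counting of peaks only. Peaks were placed by their start and compared by overlap of at least 1 bp in Python 3.11.15 (numpy 2.4.6, scipy 1.17.1), with functions tested on simulated data and against bedtools 2.31.1. Positions are printed counting from 1. "Over all" and "genome-wide" shares include the region. Tests are exact permutations over samples or pairs (threshold 0.05). If replicates were not separate cultures, p-values measure technical spread. In each part, the 6 GABPα and 4 ERG sites that were high confidence in most samples were named, ties by mean score rank, with every site of both factors. The region, lists and tests were chosen with earlier results of these data known. The 6 inputs had no peak files.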

Additional observations from a re-analysis of the deposited data

Results flagged for a closer look

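The contrasts between the region and the rest of the genome differed between the factors in 4 of 6 measures (exact permutation of the factor labels, 5 against 5 samples; p = 0.00794 each, the smallest possible, and 0.0119 after Benjamini-Hochberg adjustment over the 6 exact tests). GABPα minus ERG was 1.11 for the log2 median score, 22.6 percentage points for the share of MACS peaks kept at high confidence, 17.4 percentage points for the share with a score of at least 400, and 272 bp for the median peak length. These 4 describe the same peaks and are not separate results. At scores of at least 400, 96.9 to 100% of GABPα MACS peaks were kept in the region and 94.6 to 99.1% elsewhere. From 200 to 400 the shares were 70.6 to 88.9% and 42.2 to 78.5%. How far the kept share follows the score was not tested. The 2 measures of density between the parts had adjusted p = 0.0857 for high confidence and 0.540 for MACS peaks in the same exact tests. All 6 tests were added after seeing the data.

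Jurkat ERG replicate 1 stood apart from the other ERG samples in the ratio of MACS peak density between the MHC and histone parts, at 0.943. It rests on 18 peaks. Of 12 sets of 5 samples examined this way, 1 was picked out, and chance alone picks out about 1 in 20.

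SWEMBL intervals without a MACS peak, which no comparison above uses, numbered 29 and 21 in the region in GABPα Jurkat replicates 1 and 2 and 0 to 2 in the other samples. Genome-wide they numbered 2487 and 2059 in these 2 samples and 2 to 433 in the others, so the excess was not particular to the region. Its cause was not tested.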

How the results depend on the processing

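The larger share of GABPα than of ERG peaks kept its direction in 20 of 20 alternatives (peak sets, limits, denominators, left-out samples) and its call in 19. With GABPα and ERG samples paired by treatment or replicate number as a replicate block, the difference was 1.14 percentage points with p = 0.063 (exact sign-flip test), the smallest 5 pairs allow. The pairs share a state or a number and, as far as the labels say, no culture. Leaving out each sample gave 1.06 to 1.23. The density difference between the parts passed the threshold with all MACS peaks (-0.0124) and was positive with the split at 29 Mb (0.00125), at 28 Mb (0.0242) and in GABPα samples alone (0.0106). Leaving out each sample gave -0.00983 to -0.000160.

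The log2 score difference was 0.0212 among high confidence MACS peaks, 0.50 without both t0 samples, 1.08 in GABPα and -0.0259 in ERG samples alone, and 7.57 percentage points as the share with a score of at least 400, none past the threshold, which 5 samples of 1 factor cannot reach (smallest p = 0.063, exact test). Leaving out each sample gave 0.42 to 0.61, and the call was lost in 6 of 10 (each GABPα sample and Jurkat ERG replicate 2). The share kept at high confidence came to 22.8 points in GABPα, 0.167 in ERG samples alone and 11.7 without both t0 samples, none past the threshold and with the same limit for the single factors. Leaving out each sample gave 9.72 to 13.1, with the call lost in 6 of 10 (each GABPα sample and Jurkat ERG replicate 1). The t0 and single-factor settings were added after seeing the data, the single-factor scores and densities excepted. The tests of GABPα against ERG in these contrasts were added after seeing the data as well.

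The other 3 comparisons could not pass the threshold in any of 31 alternatives. The smallest p their exact tests allow is 0.063 and, for VCaP against Jurkat, 0.2. Their means kept their direction, although sharing between lines rose from 4.19 to 17.3 points with all MACS peaks (p = 0.063 in the exact test), 11.3 against the rest of chromosome 6 and 9.47 with whole MACS peaks. Without each sample in turn, VCaP minus Jurkat was 0.521 to 0.591, ERG overlap -3.73 to -1.64 and sharing between lines 3.25 to 7.17 percentage points. All 25 alternative counts and score ratios lay within 1.5 times or the interval of their main value. For the ERG ratio of R1881 to vehicle, that interval was the whole range over 4 sites (-0.25 to 2.71), so it could hardly fail. The median log2 ratio was 1.77 at these 4 sites, with at least 1 high confidence peak, and 0.46 at all 16 matched sites. Unknown read depth limits every comparison of scores and peak numbers between samples, the single VCaP samples allow no test of treatment, and 14 ERG high confidence peaks allow only single sites to be described.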
